A study of Bos taurus with 6 samples.

Results

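The Hippo pathway effectors and target genes described here are 10 genes, chosen by symbol among the 23475 genes of the expression table. They are the coactivators YAP1 and WWTR1, the DNA-binding factors TEAD1 and TEAD3, the kinases LATS1 and LATS2, and the target genes CCN1, CCN2, ANKRD1 and AMOTL2. The table lists 8 of them under their own symbol. The other 2 were found by a synonym in the RefSeq gene table of ARS-UCD2.0, CCN1 as CYR61 and CCN2 as CTGF. RNA was sequenced from cells isolated from subcutaneous fat of several calves and kept in DMEM with high glucose and fetal bovine serum. Of the 6 libraries, 3 came from cells given the bta-miR-484 agomir and 3 from cells given the agomir NC, with 48 h between transfection and harvest. Agomirs are modified duplex RNAs used to increase a given miRNA in cells, and the agomir NC served as negative control. The depth of the libraries is unknown. The sources used here do not say whether cells of these calves were pooled. Nor do they say whether each sample of a group was a separate calf or culture. Each p-value therefore rests only on the spread between these samples, which the limma tests below moderate with the spread of other genes.

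The Hippo pathway is a kinase cascade that restrains tissue growth. The MST kinases activate LATS1 and LATS2, which phosphorylate YAP1 and TAZ, the product of WWTR1, and so keep both out of the nucleus. Unphosphorylated YAP1 and TAZ enter the nucleus, bind TEAD factors and switch on genes such as CCN1, CCN2 and ANKRD1, and in precursor cells of fat TAZ is known as a corepressor of PPARG. This control acts largely through phosphorylation, which RNA levels do not measure.

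The libraries were labelled as adipocytes, and their most abundant marker genes were those of preadipocytes and fibroblasts. The 12 preadipocyte and fibroblast markers summed to between 18266 and 19444 FPKM in the 6 libraries, with COL3A1 highest at a mean of 7623 FPKM, while DLK1 was listed at 0. FPKM is a level per length of transcript, scaled to the mapped fragments of each library. The 10 markers of mature adipocytes summed to between 12.8 and 14.8 FPKM, with PNPLA2 highest at 3.72 FPKM. ADIPOQ, which encodes adiponectin, averaged 0.115 FPKM in agomir libraries and 0.165 FPKM in agomir NC libraries, and no library exceeded 0.0368 FPKM for LEP, which encodes leptin. Both defining markers of mature adipocytes were thus near 0. Endothelial markers summed to at most 4.54 FPKM, mostly VWF, and immune cell markers to at most 8.27 FPKM, mostly CD14. Among the endothelial markers CLDN5 was listed at 0. Smooth muscle and pericyte markers summed to between 216 and 246 FPKM, with ACTA2 highest at a mean of 207 FPKM. Of the same list CNN1 averaged 15.6 FPKM in agomir libraries and 14.3 FPKM in agomir NC libraries, CSPG4 5.33 and 4.93 FPKM, and NOTCH3 3.17 and 3.16 FPKM. MYH11, DES and RGS5 stayed at or below 0.433, 0.460 and 0.0816 FPKM. Epithelial markers summed to at most 0.414 FPKM, with EPCAM highest and KRT18 listed at 0. The agomir and agomir NC libraries overlapped in the sum of each of these lists. Single markers past an unadjusted p of 0.05 were NT5E and DCN, both lower with the agomir, and FABP4 and PPARG. FABP4 averaged 1.90 FPKM against 2.89 FPKM in agomir NC libraries, and PPARG 3.86 FPKM against 3.23 FPKM. They were 2 of 11 preadipocyte and fibroblast markers and 2 of 7 mature adipocyte markers averaging at least 0.5 FPKM. The other lists held 0, and 10.9% of all genes tested passed this threshold. The groups overlapped for FABP4 and not for NT5E, DCN or PPARG, against 17.2% of all genes tested without overlap. The adjusted p-values of these markers by limma were all at least 0.209, and their part in the results below was not tested. In bulk samples such as these, fewer cells of a type and less RNA per cell cannot be told apart.

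All 10 genes passed the filter of a mean of at least 0.5 FPKM, as did 12422 genes of the table. Differences between the groups are given as log2 fold changes of agomir over agomir NC on the log2(FPKM + 0.5) scale, tested with limma, and at low FPKM the added 0.5 makes such a change look smaller. At an unadjusted p under 0.05, 2 of the 10 were higher with the agomir, LATS1 and ANKRD1, and 0 were lower. Over all genes tested, 10.9% passed this threshold, 6.63% higher and 4.31% lower, that is 824 and 535 genes. Median-ratio scaling moved this split to 673 higher and 688 lower. After Benjamini-Hochberg adjustment over all genes, 0 of the 10 were under 0.05, against 0.00805% of all genes tested, and the adjusted p-values of the 10 ran from 0.310 to 0.980. The groups did not overlap for 3 of the 10, LATS1, TEAD1 and ANKRD1, against 17.2% of all genes tested. The median log2 fold change was 0.09 over the 10 genes and 0.01 over all genes tested, with 7 of the 10 and 6840 of the 12422 above 0. With the 8 genes listed under their own symbol alone, the count past an unadjusted p of 0.05 was again 2.

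In level, CCN2 stood highest with a mean of 100.1 FPKM over the 6 libraries, followed by CCN1 at 94.8, WWTR1 at 34.8, YAP1 at 31.8, TEAD1 at 23.6, TEAD3 at 19.9, AMOTL2 at 14.1, LATS1 at 6.09, LATS2 at 5.83 and ANKRD1 at 0.948 FPKM. The ranges over the libraries overlapped for the neighbours CCN2 and CCN1, and LATS1 and LATS2, so their order was not beyond their spread. The ranges of WWTR1 and YAP1 overlapped too, although WWTR1 was the higher of the pair within each library. The remaining neighbours in this order had ranges that did not overlap. CCN2 lay above 95.8% of the genes tested, YAP1 above 84.8%, LATS1 above 40.6% and ANKRD1 above 7.82%.

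**Figure D1:**
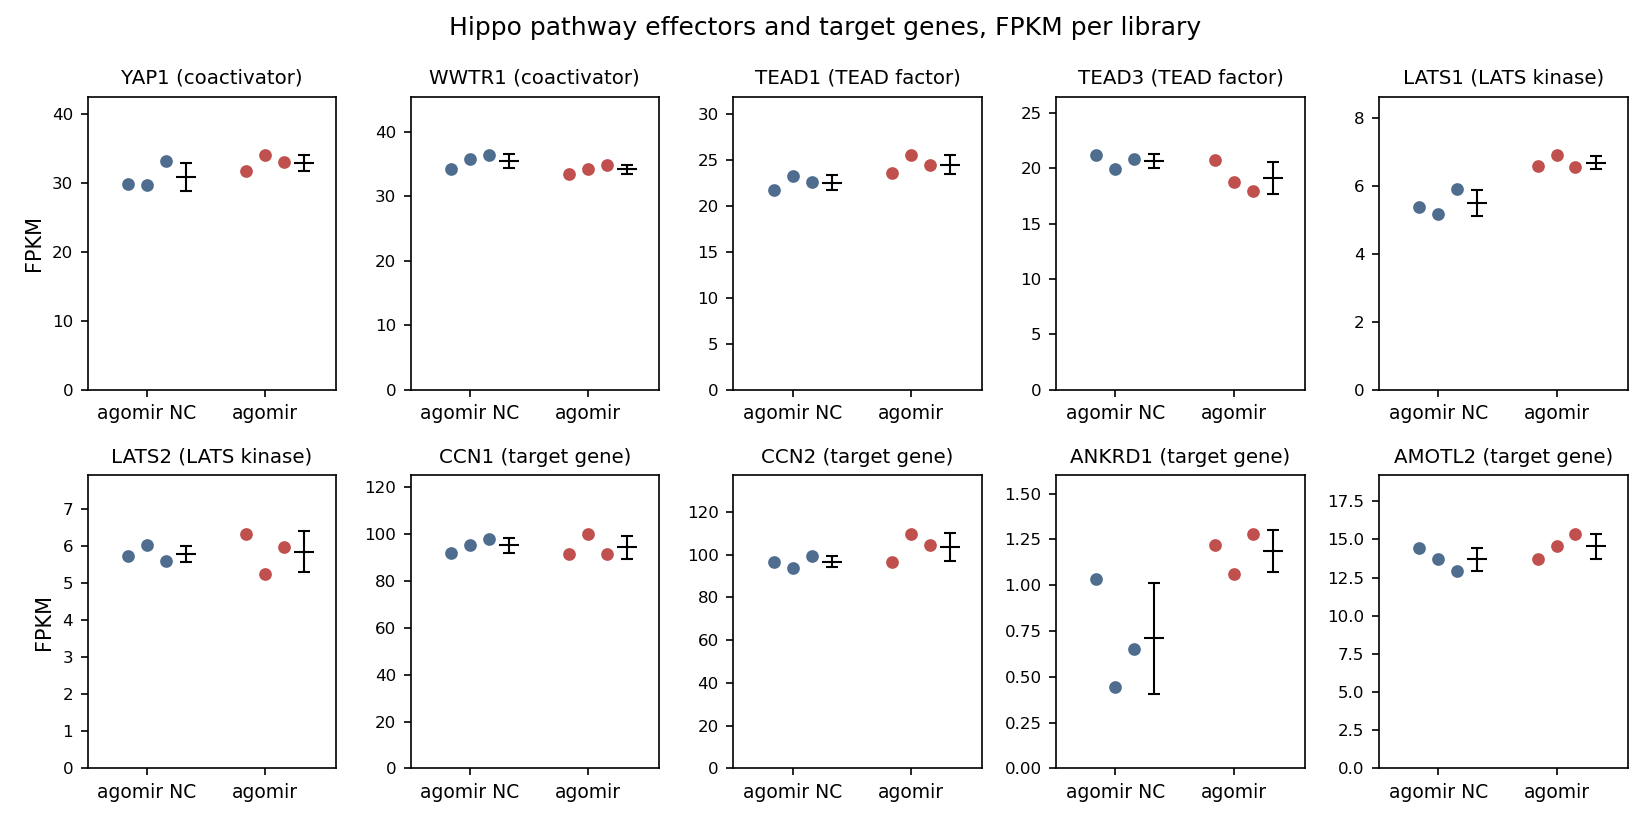
FPKM of the 10 genes in each library, with agomir NC libraries as blue points and agomir libraries as red points, and black bars giving the mean ± SD (n = 3). Each vertical axis starts at 0, and the agomir points all lie above the agomir NC points for TEAD1, LATS1 and ANKRD1.

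YAP1 and WWTR1 encode the coactivators on which the pathway converges. In granulosa cells YAP1 has been described as a direct target of miR-484. Only its RNA level was compared here, and whether bta-miR-484 acts on YAP1 in these cells was not tested. YAP1 reached 31.6, 34.0 and 32.9 FPKM in agomir libraries and 29.8, 29.6 and 33.2 FPKM in agomir NC libraries. The groups overlapped, because replicate 3 of the agomir NC lay above 2 of the agomir libraries. Mean YAP1 was 32.8 ± 1.19 FPKM (SD, n = 3) in agomir libraries and 30.9 ± 2.01 FPKM in agomir NC libraries. The log2 fold change of YAP1 was 0.09 with a 95% interval from -0.04 to 0.22 (limma, adjusted p = 0.617), and the lower bound corresponds to a ratio of 0.972. Without agomir NC replicate 3 the log2 fold change of YAP1 was 0.14 and its unadjusted p was under 0.05, in 1 of the 16 alternative settings. WWTR1 reached 33.5, 34.3 and 34.8 FPKM in agomir libraries and 34.2, 35.8 and 36.4 FPKM in agomir NC libraries. These groups overlapped too, with a log2 fold change of -0.05 and a 95% interval from -0.16 to 0.05 (limma, adjusted p = 0.733). Without agomir NC replicate 3 it was -0.03.

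Since FPKM is normalized for length, the share of paralogs can be compared within a library. YAP1 made up 48.6%, 49.8% and 48.6% of the sum of YAP1 and WWTR1 in the agomir libraries and 46.5%, 45.3% and 47.7% in the agomir NC libraries. WWTR1 therefore had the higher FPKM of the pair in all 6 libraries, and the share of YAP1 was higher in every agomir library than in any agomir NC library. The difference of 2.46 percentage points had an exact permutation p = 0.1 (two-sided), the smallest that 20 labelings allow, and 0.2 after adjustment over the 3 shares compared, as had the shares of TEAD1 and LATS1 given below. The sum of both coactivators ranged from 63.9 to 69.5 FPKM over the libraries.

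TEAD factors bring YAP1 and TAZ to DNA. TEAD1 reached 23.6, 25.6 and 24.5 FPKM in agomir libraries and 21.7, 23.3 and 22.7 FPKM in agomir NC libraries. Every agomir library lay above every agomir NC library, although the nearest values, 23.6 and 23.3 FPKM, were close. The log2 fold change was 0.12 ± 0.054 (SE), with an interval from -0.003 to 0.24 (limma, adjusted p = 0.467). The unadjusted p of TEAD1 was under 0.05 in 4 of the 16 alternative settings, among them without agomir replicate 1 (log2 fold change 0.15) and without agomir NC replicate 2 (0.14). TEAD3, a paralog that binds the same coactivators, reached 20.7, 18.7 and 18.0 FPKM in agomir libraries and 21.2, 19.9 and 20.8 FPKM in agomir NC libraries. Replicate 1 of the agomir stood among the agomir NC values and the other agomir libraries below them, with a log2 fold change of -0.11 (limma, adjusted p = 0.583). Without agomir replicate 1 it was -0.17, and the unadjusted p was then under 0.05, whereas without agomir replicate 3 it was -0.06. The family has 4 genes, and TEAD2 and TEAD4 were the lower ones, with means of 2.38 and 6.08 FPKM in the agomir libraries and 2.47 and 5.82 FPKM in the agomir NC libraries. TEAD1 made up 44.4%, 48.8% and 48.1% of the sum of the 4 genes with the agomir and 42.3%, 45.6% and 43.6% with the agomir NC. These shares overlapped between the groups (exact permutation p = 0.2), with a difference of 3.26 percentage points. The difference was 4.61 without agomir replicate 1 and 4.12 without agomir NC replicate 2, the libraries whose shares overlapped. Leaving out either of them removes the overlap by construction. Without agomir replicate 2 the difference was 2.41. The sum of the family stayed between 50.9 and 53.1 FPKM.

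LATS1 and LATS2 are the kinases that phosphorylate the coactivators. LATS1 reached 6.59, 6.90 and 6.54 FPKM in agomir libraries and 5.39, 5.18 and 5.92 FPKM in agomir NC libraries. All 3 agomir libraries lay above all 3 agomir NC libraries, and the agomir values were close to each other. Mean LATS1 was 6.68 ± 0.196 FPKM (SD, n = 3) in agomir libraries and 5.49 ± 0.380 FPKM in agomir NC libraries, a difference of 21.6%. The log2 fold change was 0.26 ± 0.077 (SE), with a 95% interval from 0.09 to 0.43. Its unadjusted p = 0.00733 by limma ranked 290 among the 12422 genes, the adjusted p = 0.310, and the exact permutation p = 0.1 was the smallest that 20 labelings allow. The difference was thus past the unadjusted threshold and not past the adjusted one. The unadjusted p of LATS1 was under 0.05 in each of the 16 alternative settings.

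LATS2 reached 6.34, 5.25 and 5.99 FPKM in agomir libraries and 5.75, 6.04 and 5.61 FPKM in agomir NC libraries. The highest and the lowest LATS2 values both came from agomir libraries. The log2 fold change of 0.01, with a 95% interval from -0.18 to 0.20, turned to -0.0033 with median-ratio scaling and to -0.016 with quantile normalization. LATS1 made up 51.0%, 56.8% and 52.2% of the sum of both kinases with the agomir and 48.4%, 46.2% and 51.3% with the agomir NC. These shares overlapped (exact permutation p = 0.2). Their difference of 4.70 percentage points was 2.96 without agomir replicate 2. It was 5.87 without agomir replicate 1 and 6.05 without agomir NC replicate 3, the libraries whose shares overlapped. Leaving out either of them removes the overlap by construction. The sum of both kinases was 12.9, 12.1 and 12.5 FPKM in agomir libraries and 11.1, 11.2 and 11.5 FPKM in agomir NC libraries, without overlap. LATS1 alone did not overlap either, while mean LATS2 was 5.86 FPKM and 5.80 FPKM, and the sum was not tested.

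The 4 target genes spanned the widest range of levels. CCN1 encodes a secreted matricellular protein that binds integrins. CCN1 reached 91.6, 100.1 and 91.5 FPKM in agomir libraries and 92.0, 95.5 and 98.1 FPKM in agomir NC libraries. Agomir libraries held both the highest and the lowest value, and the log2 fold change was -0.01 with a 95% interval from -0.12 to 0.10 (limma, adjusted p = 0.954). It was -0.055 without agomir replicate 2. The direction turned without agomir replicate 1 (0.0084), agomir replicate 3 (0.0093) or agomir NC replicate 3 (0.0093). CCN2, its paralog and a growth factor of connective tissue, reached 96.5, 109.7 and 104 FPKM in agomir libraries and 96.8, 94.0 and 99.2 FPKM in agomir NC libraries. Replicates 2 and 3 of the agomir stood above all agomir NC libraries and replicate 1 did not. The log2 fold change of CCN2 was 0.10, with a 95% interval from -0.02 to 0.21 (limma, adjusted p = 0.540). It was 0.15 without agomir replicate 1, where the unadjusted p was under 0.05, and 0.05 without agomir replicate 2. AMOTL2 encodes an angiomotin that also binds YAP1 and holds it outside the nucleus. AMOTL2 reached 13.7, 14.6 and 15.4 FPKM in agomir libraries and 14.4, 13.7 and 13.0 FPKM in agomir NC libraries. The groups overlapped, with a log2 fold change of 0.08 (limma, adjusted p = 0.683) that was 0.05 without agomir replicate 3 or agomir NC replicate 3.

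ANKRD1 encodes an ankyrin repeat protein best known from heart and skeletal muscle. ANKRD1 reached 1.22, 1.06 and 1.28 FPKM in agomir libraries and 1.04, 0.442 and 0.652 FPKM in agomir NC libraries. The agomir libraries all lay above the agomir NC libraries, but replicate 2 of the agomir and replicate 1 of the agomir NC differed by little. The ratio of the group means was 1.67, and the log2 fold change was 0.51 with a 95% interval from 0.09 to 0.92. By limma the unadjusted p = 0.0212 and the adjusted p = 0.381, and the exact permutation p = 0.1. The unadjusted p passed 0.05 in 10 of the 15 alternative settings in which the gene could be tested. It did not without agomir replicate 1 (log2 fold change 0.49), agomir replicate 3 (0.47), agomir NC replicate 2 (0.34) or agomir NC replicate 3 (0.49), nor without a filter on low values. At a filter of 1 FPKM the gene was not tested. The 7 markers of skeletal and cardiac muscle summed to between 0.043 and 0.275 FPKM, with TNNT2 highest, and MYOD1, MYOG and NPPA were listed at 0. The groups overlapped in this sum.

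**Figure D2:**
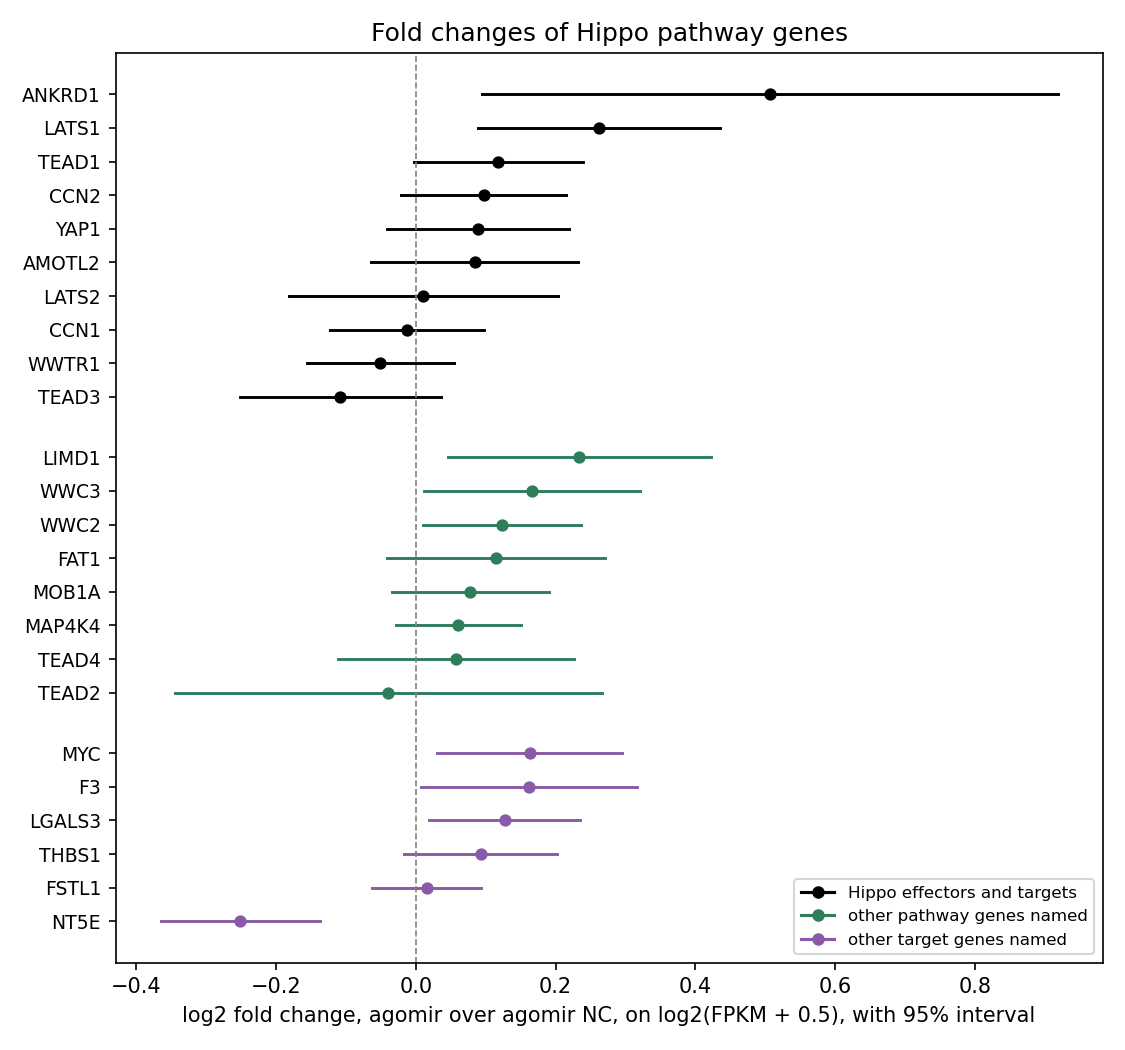
Log2 fold change of agomir over agomir NC on the log2(FPKM + 0.5) scale (points) with 95% intervals from limma (lines), for the 10 genes (black), other pathway genes (green) and other target genes (purple) named in the text. Intervals of LATS1, ANKRD1, LIMD1, WWC2, WWC3, MYC, F3 and LGALS3 lie above 0 and that of NT5E lies below 0, before adjustment over all genes.

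Across the 6 libraries, the genes whose centred log2 values lay nearest to those of CCN1 were KIF20B, ADSS and ATAD5, at a root mean square difference of 0.015, 0.015 and 0.017. The values of CCN1 itself spread by 0.051 around their mean. Nearest to CCN2 were KLHL21, UBE2J1 and MED16, at 0.011, 0.015 and 0.019 against a spread of 0.076. For ANKRD1 the nearest named genes were HIST1H2BJ and XRCC2, at 0.10 and 0.13 against a spread of 0.33, and a newly assembled gene without a symbol lay between them at 0.12. The nearest genes were picked among all 12422 genes tested over only 6 libraries, and such a choice favours small distances. These distances describe the libraries only and were not tested.

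Among 44 other genes of the pathway, from kinases to polarity proteins, 43 were matched to the table and 40 passed the filter. At an unadjusted p under 0.05, 3 of the 40 were higher with the agomir and 0 lower, against 6.63% and 4.31% of all genes tested, and 0 of the 40 had an adjusted p under 0.05 by limma. Their median log2 fold change was 0.04, and the groups did not overlap for 10 of them, against 17.2% of all genes tested. The 3 were WWC2 and WWC3, relatives of the scaffold protein KIBRA, and LIMD1, a LIM protein that binds and inhibits LATS kinases. LIMD1 reached 15.9, 17.8 and 16.7 FPKM in agomir libraries and 15.7, 14.5 and 12.5 FPKM in agomir NC libraries. The groups did not overlap, and the log2 fold change was 0.23 ± 0.084 (SE; limma, adjusted p = 0.376). Without agomir NC replicate 3 it was 0.15 and without agomir replicate 2 it was 0.19, and in both cases the unadjusted p was above 0.05. Mean WWC2 was 21.0 FPKM against 19.3 FPKM, a log2 fold change of 0.12, and mean WWC3 was 11.5 FPKM against 10.2 FPKM, a log2 fold change of 0.17. The unadjusted p was under 0.05 in 7 of the 16 alternative settings for WWC2 and in 10 for WWC3, and above 0.05 for both with the replicate block. The count of 3 became 7 without a filter, 1 with quantile normalization and 0 without agomir NC replicate 3. Without agomir replicate 2 the count was 1, a gene other than these 3. The highest genes of the list were MAP4K4, a kinase upstream of LATS, MOB1A, an activator of LATS, and the cadherin FAT1. Their means were 69.5, 52.6 and 50.4 FPKM in agomir libraries and 66.6, 49.8 and 46.7 FPKM in agomir NC libraries.

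Some further genes of the cascade were chosen after their values were seen. Lack of overlap held for 10 of the 40 pathway genes that passed the filter, against 17.2% of all genes tested. STK4, which encodes the MST1 kinase, averaged 4.95 ± 0.255 FPKM in agomir libraries and 5.68 ± 0.385 FPKM in agomir NC libraries. The groups did not overlap (limma, adjusted p = 0.467). CSNK1D, at 29.6 FPKM against 27.3 FPKM, and MAP4K5, at 9.62 FPKM against 8.65 FPKM, were higher with the agomir, also without overlap. Their adjusted p-values by limma were 0.460 and 0.467. STK3, the paralog of STK4, averaged 13.6 FPKM and 14.3 FPKM, and the groups overlapped. AJUBA and WTIP, the relatives of LIMD1, averaged 3.39 and 5.40 FPKM in agomir libraries and 2.97 and 4.66 FPKM in agomir NC libraries, and both overlapped between the groups. NF2, the scaffold also called merlin, averaged 10.7 FPKM and 10.5 FPKM, without overlap (limma, adjusted p = 0.886).

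Of 26 other genes listed here as targets of YAP1 and TAZ, 23 passed the filter. At an unadjusted p under 0.05, 3 of the 23 were higher with the agomir, F3, MYC and LGALS3, and 1 was lower, NT5E, against 6.63% and 4.31% of all genes tested. By limma, 0 of the 23 had an adjusted p under 0.05, the median log2 fold change was 0.02, and the groups did not overlap for 5, against the same 17.2%. NT5E, which encodes the ecto-enzyme CD73 and was also among the preadipocyte markers, reached 71.7, 70.6 and 77.5 FPKM in agomir libraries and 83.1, 89.2 and 89.4 FPKM in agomir NC libraries. All agomir libraries lay below all agomir NC libraries, and the log2 fold change was -0.25 ± 0.051 (SE; limma, adjusted p = 0.209). Mean MYC, a transcription factor of growth, was 11.8 FPKM in agomir libraries and 10.5 FPKM in agomir NC libraries. Mean F3, or tissue factor, was 13.7 FPKM and 12.2 FPKM, and mean LGALS3, or galectin-3, was 374 FPKM and 343 FPKM. The unadjusted p was under 0.05 in 13 of the 16 alternative settings for MYC, in 11 for LGALS3 and in 7 for F3, which was above 0.05 with the replicate block. The count of 3 became 0 without agomir replicate 2 or agomir replicate 3, and 1 without agomir NC replicate 2, where the log2 fold change of LGALS3 went from 0.13 to 0.08. The highest genes of the list besides LGALS3 were FSTL1, at 454 FPKM and 449 FPKM, and THBS1, at 363 FPKM and 340.4 FPKM.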

How the data were processed

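RNA-seq values of 6 libraries, 3 with the bta-miR-484 agomir and 3 with the agomir NC, were used. The authors deposited a table of FPKM per gene, and the submitters' processing notes name fastp, HISAT2, StringTie and the build ARS-UCD1.2, without versions of the programs. FPKM holds no read numbers: ratios of 2872 low genes between a pair of libraries showed no steps of whole reads (9 or fewer genes in any log2 interval of 0.002), and the depth is unknown. Genes averaging 0.5 FPKM or more were taken as log2(FPKM + 0.5) and compared with limma 3.58.1 in R 4.3.3 (moderated test with variance trend, two-sided, Benjamini-Hochberg over all 12422 genes), which was tested on simulated data. Single values were compared by the exact permutation test of mean FPKM over 20 labelings, whose smallest p is 0.1.

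Other genes were named if their unadjusted p was under 0.05 or if they were among the 3 highest of their list, and TEAD2 and TEAD4 always. STK4, STK3, AJUBA, WTIP, NF2, CSNK1D and MAP4K5 fall outside this rule and were chosen after their values were seen. So were the single markers past an unadjusted p of 0.05. Markers were summed, and the 3 genes nearest to CCN1, CCN2 and ANKRD1 were taken by root mean square difference. The genes and lists were chosen with earlier results of these data known. Alternatives were each library left out in turn, the replicate number as a block, array weights from limma, a fit without variance trend, scaling by quantiles or by median ratios, pseudocounts of 0.1 and 1, and a filter at 1 FPKM or none. A further alternative was added after its counterpart's results had been seen: no filter, but without the genes listed at 0 in every library. Sequences of the miRNA and its sites were not used here.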

Additional observations from a re-analysis of the deposited data

How the results depend on the processing

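Under the alternatives, 151 of 159 log2 fold changes of the 10 genes had the direction reported, and no adjusted p by limma fell below 0.263. The changed filters, the fit without variance trend and the replicate block cannot alter a log2 fold change, so no direction could turn there. LATS2 turned to -0.0033 with median-ratio scaling and -0.016 with quantile normalization. With each library left out, LATS2 ranged from -0.044 to 0.082, CCN1 from -0.055 to 0.0093 and TEAD2 from -0.15 to 0.061, while LATS1 stayed between 0.22 and 0.31. At an unadjusted p under 0.05, the 2 higher genes of the 10 became 1 at a mean of at least 1 FPKM, where ANKRD1 was not tested, 3 without a filter and without the genes listed at 0, where TEAD1 was added, and 1 to 3 with each library left out (1 without agomir replicate 3). The genes counted also changed: TEAD1 stood in place of ANKRD1 without a filter and without agomir NC replicate 2, YAP1 in its place without agomir NC replicate 3, and TEAD1 and CCN2 without agomir replicate 1. The 0 lower genes became 0 to 1, the 1 being TEAD3 without agomir replicate 1. The 3 higher other pathway genes became 7 without a filter, 1 with quantile normalization and 0 to 3 with each library left out. The 0 lower ones became 1 without a filter, without variance trend, with array weights, median-ratio scaling or quantile normalization, and 0 to 1 with each library left out. The 3 higher other target genes became 1 without a filter or variance trend and 0 to 4 with each library left out, and the 1 lower became 1 to 2. Over all genes, the 1 adjusted call became 2 without a filter, 0 without variance trend and 0 to 2 with each library left out, beside 1359 genes at an unadjusted p under 0.05. The setting without a filter held 23475 genes, including those listed at 0 in every library, whose spread is 0. When these were left out, an alternative added after the results without a filter had been seen, 18467 genes remained, the adjusted calls were 0 and the higher other pathway genes 5. With the replicate block, the adjusted calls over all genes became 0 and the higher other pathway genes 1, as WWC2 and WWC3 were then above 0.05, and so was F3 of the other target genes. The numbers did not pair the samples: deviations of same-numbered libraries correlated across genes at -0.051, 0.053 and 0.039. The cause of these changes was not tested. FPKM gives no depth, so no counting error could be set beside ANKRD1 or other low genes.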
